A study of Mus musculus with 36 samples.

Results

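The proteasome subunits described here are 42 protein-coding genes of 55471 gene identifiers measured by RNA sequencing in mouse muscle satellite cells, the resident stem cells of muscle fibres. They were chosen by name alone: a GRCm38 symbol made of Psma, Psmb, Psmc, Psmd or Psme and a digit, without the immunoproteasome subunits Psmb8, Psmb9 and Psmb10 and without pseudogene names. By known role, 8 encode subunits of the alpha ring and 8 subunits of the beta ring of the 20S core, 6 encode ATPases and 11 other subunits of the 19S cap, 3 encode chaperones that assist cap assembly (Psmd5, Psmd9 and Psmd10), and 5 encode activators of the core. The remaining gene, Psmc3ip, is a factor of meiotic recombination that the rule reached by name only, and it is counted apart where roles are given.

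Gene expression was given as TPM (the share of a gene in all transcripts of a library, corrected for length and scaled to the same total in each) in 36 libraries of C57BL/6 mice. A table of 21 libraries held KO cells, from Pax7-CreER;ROSA26YFP;Drp1fl/fl mice, and control cells, from Pax7-CreER;ROSA26YFP mice; both were given tamoxifen and were 3 months old, so that Cre, the YFP reporter and the drug are common to them. Pax7-CreER acts in cells that express Pax7, the transcription factor that marks satellite cells, and Drp1, a GTPase that divides mitochondria, is encoded by Dnm1l. KO cells came in 3 states: quiescent cells of uninjured hindlimb muscle (QSC, n = 3), and cells sorted at 1 day (1 DPI, n = 4) or 3 days (3 DPI, n = 4) from muscle injured with cardiotoxin. Control cells came in the same states with n = 3, 4 and 3. The sort gate was YFP+ for QSC and 1 DPI but CD34-YFP+ for 3 DPI, so it changes with the last state. The remaining 15 libraries form another table, with wild-type (WT) cells of old mice (24 months; QSC, 1 DPI and 3 DPI) and of young mice (3 months; QSC and 1 DPI), with n = 3 in each group. How these cells were sorted is not stated. The labels number the libraries as replicates without saying whether each is a separate animal, so p-values measure the spread between libraries, which may be technical.

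The proteasome degrades proteins tagged with ubiquitin and is the main route by which cells clear short-lived and damaged proteins. Its core is a barrel of alpha rings, which gate the entrance, around beta rings, of which Psmb5 (chymotrypsin-like), Psmb6 (caspase-like) and Psmb7 (trypsin-like) carry the active sites. The cap recognises ubiquitin chains, removes them through the deubiquitinase Psmd14 and unfolds the substrate through the Psmc ATPases, and the subunits are built into one complex in fixed proportion. In skeletal muscle the pathway is best known for breaking down myofibrillar protein during atrophy, and satellite cells leave quiescence by growing and dividing.

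Promoter sequences were available from RefSeq (GRCm38.p6) for 35 of the 42 genes, with none for Psma8, Psmb1, Psmb2, Psmb7, Psmc3, Psmd3 and Psmd7. Each stretch below holds the 250 bases before a RefSeq start site, 5′ to 3′ on the gene's strand, with motif matches in capitals: TGACNNNGC, the core of the antioxidant response element, CCAAT, the box bound by NF-Y, GGGCGG, the box bound by Sp factors, and TATAAA, the TATA box, each searched on both strands, so that a match on the other strand appears as its reverse complement. The first 3 belong to genes that rose in every injury comparison made with QSC, the cap chaperone Psmd5, the deubiquitinase Psmd14 and the catalytic subunit Psmb5, and the last to Psmb4, a beta subunit that was called at no step.
Psmd5 (chr2:34870963-34871212, minus strand, 2 matches of GGGCGG): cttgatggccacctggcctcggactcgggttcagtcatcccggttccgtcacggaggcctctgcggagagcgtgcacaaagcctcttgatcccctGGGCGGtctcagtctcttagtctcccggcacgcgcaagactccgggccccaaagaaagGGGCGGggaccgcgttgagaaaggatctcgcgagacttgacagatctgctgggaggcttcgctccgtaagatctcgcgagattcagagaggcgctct
Psmd14 (chr2:61711444-61711693, plus strand, 1 of CCAAT and 3 of GGGCGG): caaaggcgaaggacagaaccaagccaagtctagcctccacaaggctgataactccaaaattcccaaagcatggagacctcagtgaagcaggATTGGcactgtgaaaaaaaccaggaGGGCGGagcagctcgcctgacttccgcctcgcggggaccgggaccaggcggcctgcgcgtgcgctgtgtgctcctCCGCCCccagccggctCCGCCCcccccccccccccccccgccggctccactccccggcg
Psmb5 (chr14:54617996-54618245, minus strand, 1 of TGACNNNGC): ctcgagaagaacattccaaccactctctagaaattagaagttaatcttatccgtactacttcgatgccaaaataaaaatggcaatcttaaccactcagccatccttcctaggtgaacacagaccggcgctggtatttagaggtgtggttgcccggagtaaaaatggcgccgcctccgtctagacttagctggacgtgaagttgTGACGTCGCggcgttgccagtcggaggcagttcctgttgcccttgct
Psmb4 (chr3:94886959-94887208, minus strand, TATAAA on both strands in overlapping letters): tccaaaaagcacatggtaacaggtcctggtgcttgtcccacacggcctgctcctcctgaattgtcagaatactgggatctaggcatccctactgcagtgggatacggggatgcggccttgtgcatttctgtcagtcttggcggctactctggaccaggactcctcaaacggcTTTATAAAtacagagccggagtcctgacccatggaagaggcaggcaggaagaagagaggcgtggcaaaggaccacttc
GGGCGG was present in 55.3% of the 38 promoters of these genes, against 32.7% of all 32851 promoters of the same length. TGACNNNGC was present in 13.2% of them (Psmb5, Psmb6, Psmc6, Psmd9 and Psmd12), against 10.2% of all, CCAAT in 36.8% against 33.8%, and TATAAA in 7.9% against 12.4%. These shares are descriptions of letters in a window and were not tested. The longer annotated Psmd5 gene starts upstream of the RefSeq start used here.

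Of the 42 genes, 40 reached 1 TPM in at least 3 libraries of each table and were tested; Psma8, the testis form of an alpha subunit, and Psmb11, the thymus form of a beta subunit, did not. TPM keep no depth, so the counting error behind each value is unknown; libraries of the Drp1 table had 12325 to 14969 genes at 1 TPM or more, and libraries of the other 12958 to 14636. The age table held no 0, and the lowest values of its genes showed an adjustment per gene that no label explains. Levels of different genes are therefore ranked only in the Drp1 table. Sums over genes in the age table carry this limit. All 7 markers of satellite cells and myoblasts were present in every state, with summed levels of 1636 to 2444 TPM in QSC of the Drp1 table. Their sum there was 783 to 1560 TPM at 1 DPI and 921 to 1253 TPM at 3 DPI. Old cells held 1454 to 3035 TPM of them in QSC. They held 1026 to 1555 TPM at 1 DPI and 589 to 824 TPM at 3 DPI. Young cells held 2100 to 2844 TPM in QSC and 1388 to 1575 TPM at 1 DPI. Proliferation markers, 5 genes, summed to 6.9 to 76.0 TPM in QSC of the Drp1 table and 306 to 866 TPM at 1 DPI. The 5 myofibre markers summed to 36.0 to 232 TPM in QSC and 431 to 735 TPM at 3 DPI. Markers of macrophages and neutrophils differed between libraries: at 1 DPI the 10 macrophage markers summed to 505 to 7982 TPM in KO libraries and 325 to 4028 TPM in control libraries, with the highest sums in KO library 2 (7982) and control libraries 3 (4028) and 1 (2651). The same list summed to 51.1 to 112 TPM over the QSC libraries of this table and 108 to 356 TPM over those of 3 DPI. The 5 neutrophil markers summed to 6.9 to 31.2 TPM in QSC, 337 to 5026 TPM at 1 DPI and 10.9 to 49.4 TPM at 3 DPI. The 5 markers of fibro-adipogenic cells summed to 862 to 1200.4 TPM in QSC, 252 to 592 TPM at 1 DPI and 66.5 to 169 TPM at 3 DPI. In old cells the macrophage list summed to 5680 to 6984 TPM at 3 DPI and 189 to 593 TPM at 1 DPI. At 1 DPI young cells held 133 to 718 TPM of it. Fibro-adipogenic markers summed to 249.7 to 396 TPM in old cells at 1 DPI, against 853 to 1119.6 TPM in old QSC, and to 369 to 492 TPM in young cells at 1 DPI, against 679 to 954 TPM in young QSC. Old QSC library 1 held 4487 TPM of 5 neutrophil markers and 1265 TPM of 3 erythroid markers. In sorted bulk cells, fewer cells of a type and less RNA per cell cannot be told apart. Among these genes, 19 share at least 100 bases at 95% identity with another gene, 10 of them over at least 50% of a transcript, and the near-identical pair Psme2 and Psme2b (99.3% identity) is uncertain.

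In resting control cells the subunits of the core, although built into the complex in equal number, differed widely in RNA level. The highest were the alpha subunit Psma3, at 558 ± 59.0 TPM, and the catalytic Psmb6, at 552 ± 51.2 TPM, and the lowest of the 14 constitutive core subunits was the catalytic Psmb5, at 75.0 ± 5.89 TPM (SD, n = 3 each). Psma3 shares sequence over most of its transcript with processed pseudogenes, so reads may be split between them. In the cap, Psmd11, a scaffold subunit, was highest at 476 TPM and Psmd3 was lowest at 29.6 TPM. The cap chaperones were at 26.1 TPM (Psmd9), 18.4 TPM (Psmd5) and 5.88 TPM (Psmd10), below all 14 constitutive core subunits. Among activators, Psme4, the PA200 activator, averaged 56.3 TPM and Psme3, the nuclear 11S activator, 32.4 TPM, while Psme2b averaged 1.32 TPM. Psmb11 averaged 0.234 TPM and Psma8 was listed at 0.

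**Figure D1:**
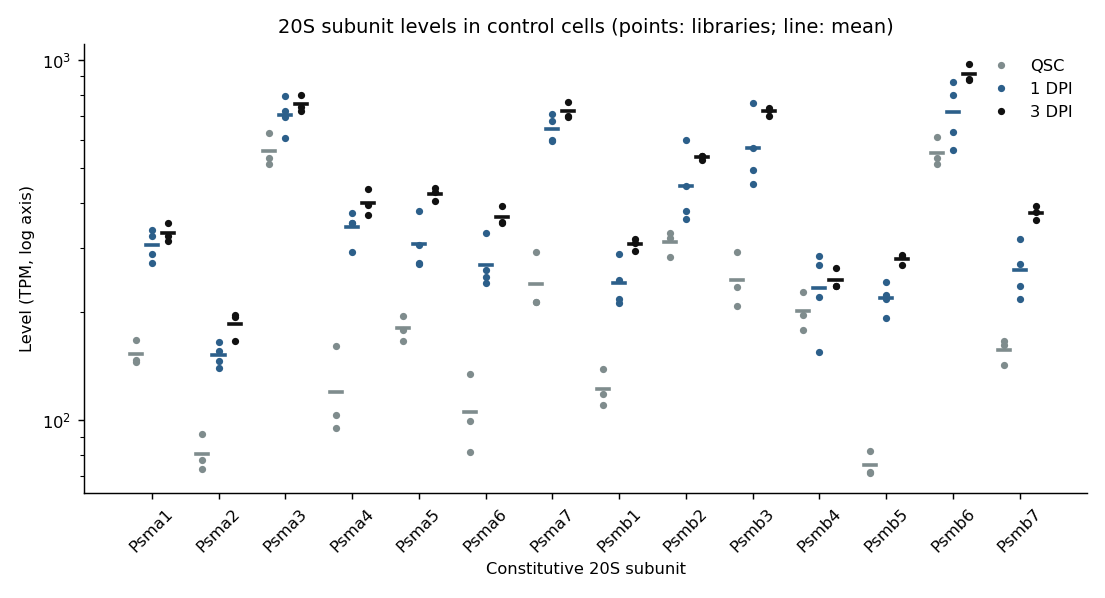
Level of the 14 constitutive 20S subunits in control cells by state, in TPM on a log axis; points are libraries (n = 3, 4 and 3) and short lines their means. Psma3 and Psmb6 are highest in QSC and Psmb5 lowest, and the span between subunits narrows after injury.

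The RNA of the whole group took a larger share of the transcriptome after injury in both genotypes and both ages. In KO cells it made up 0.707 ± 0.114% of all TPM in QSC (n = 3), 1.07 ± 0.152% at 1 DPI (n = 4) and 1.27 ± 0.0287% at 3 DPI (SD, n = 4). In control cells the shares were 0.647 ± 0.0691% in QSC (n = 3), 1.09 ± 0.129% at 1 DPI (n = 4) and 1.27 ± 0.00793% at 3 DPI (SD, n = 3). No library of 1 DPI or 3 DPI fell as low as any QSC library. In old cells the QSC share was 0.601 ± 0.0985%, that of 1 DPI 1.24 ± 0.110% and that of 3 DPI 1.12 ± 0.0497%. In young cells the QSC share was 0.713 ± 0.0325% and that of 1 DPI 1.14 ± 0.0463% (SD, n = 3 each). The summed level at 1 DPI was 1.52 times that of QSC in KO cells, 1.68 times in control cells, 2.06 times in old cells and 1.59 times in young cells. The sum of the core subunits was 1.61, 1.75, 2.02 and 1.65 times as high in KO, control, old and young cells, and that of the cap subunits 1.43, 1.62, 2.15 and 1.52 times. The activators summed to 1.02, 1.10, 1.20 and 1.12 times their QSC level in the same order of groups.

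**Figure D2:**
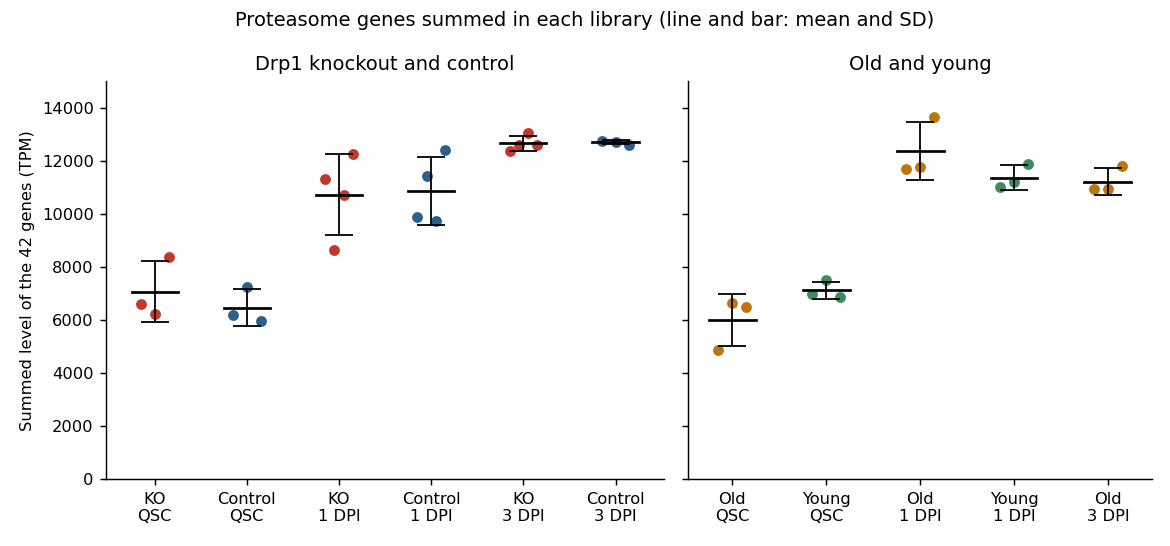
Summed TPM of the 42 genes in each library by group and state; points are libraries, lines are the mean and its SD. QSC libraries lie between 4877 and 8367 TPM and libraries of 1 DPI and 3 DPI between 8651 and 13639 TPM.

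Most subunits of the core and cap, and all 3 cap chaperones, were higher at 1 DPI than in QSC, while at most 1 of the 5 activators was called higher in any set of cells. A gene was called where its adjusted p, from limma on log2(TPM + 1) with Benjamini-Hochberg adjustment over all genes of the table, was under 0.05. In KO cells 27 of the 40 genes were called higher and 0 lower (21.6% and 10.6% of all genes tested were called higher and lower), with a median log2 fold change of 0.74, against 0.16 over all genes. In control cells 30 were called higher and 1 lower (23.3% and 12.6% of all genes), with a median of 0.85, against 0.15 over all. In old cells 31 were called higher and 0 lower (24.8% and 7.72% of all genes), with a median of 1.15, against 0.27 over all. In young cells 28 were called higher and 2 lower (23.2% and 8.79% of all genes), with a median of 0.80, against 0.24 over all. These 4 comparisons share no library. Of the 40 genes, 25 were called higher in all 4, 3 in 3, 3 in 2, 1 in 1, and 8 in none. Scaling each library by the median of ratios in place of TPM moved the median of all genes by -0.21 in KO cells, -0.21 in control cells, -0.34 in old cells and -0.26 in young cells. The median of the 40 genes was then 0.40 in KO cells, 0.49 in control cells, 0.65 in old cells and 0.41 in young cells. Those called higher and lower were then 19 and 4 in KO cells (16% and 17.8% of all genes), 24 and 4 in control cells (17.7% and 20.4%), 22 and 1 in old cells (15.9% and 15.5%), and 13 and 3 in young cells (15.4% and 14.8%). Of all called genes, 47.4% were then higher in KO cells (67.1% with TPM as deposited), 46.5% in control cells (64.9%), 50.6% in old cells (76.2%) and 51.0% in young cells (72.5%).

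By role, the alpha ring had 6 of 7 genes called higher in KO and in control cells and 7 of 7 in old and in young cells. The beta ring had 4 of 7 called higher in KO cells, 6 of 7 in control cells, 5 of 7 in old cells and 4 of 7 in young cells. Of the 6 ATPases, 4 were called higher in KO cells, 5 in control cells, 5 in old cells and 4 in young cells. Of the 11 other cap subunits, 9 were called higher in KO, control and old cells and 8 in young cells, where Psmd8 fell. Of the 5 activators, 0 were called higher in KO and control cells, and 1 in old and young cells.

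**Figure D3:**
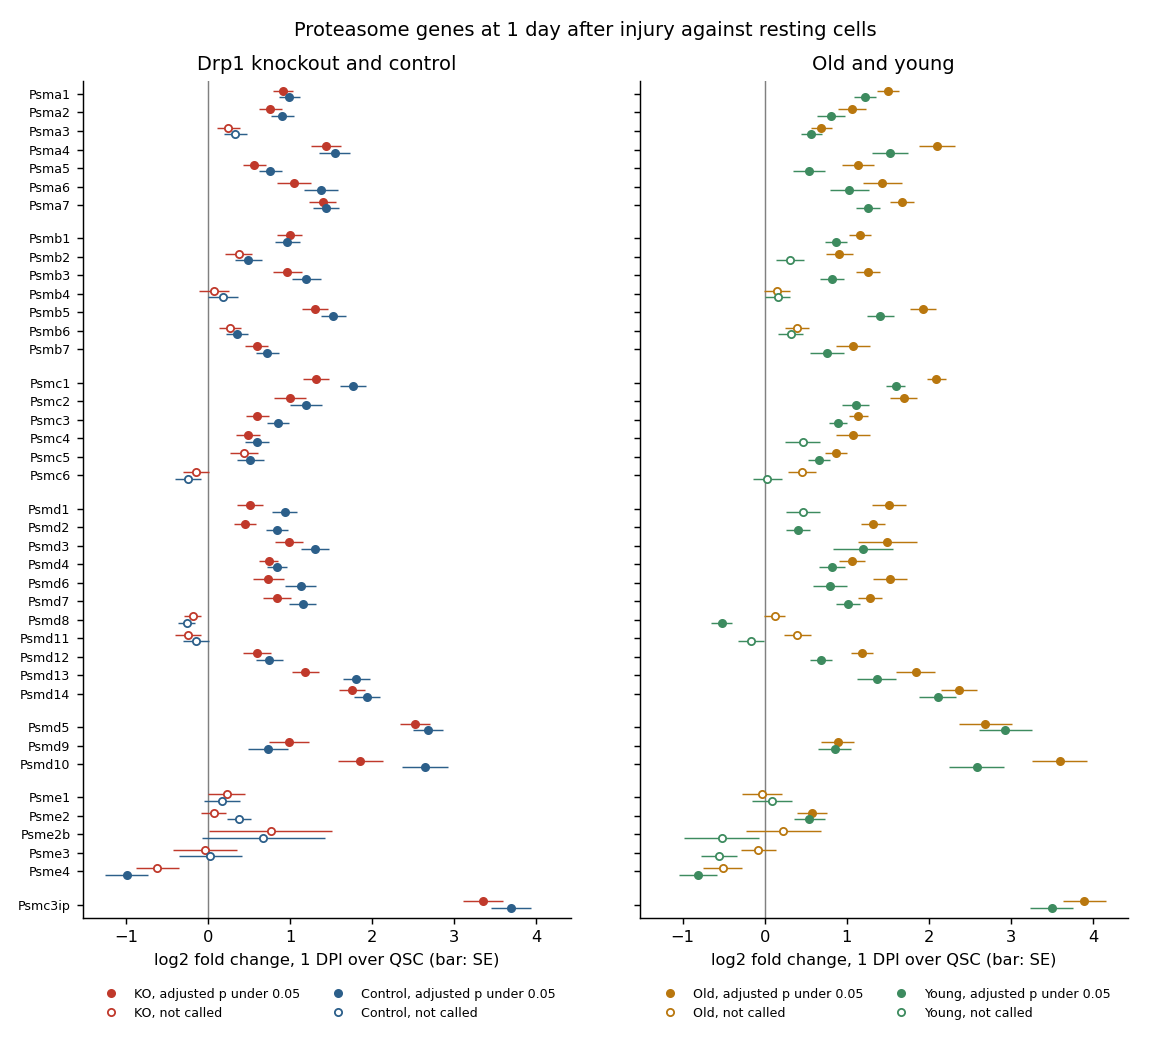
Log2 fold change (TPM + 1) of each tested gene at 1 DPI over QSC, with its SE, grouped by role; the left panel shows KO and control cells, the right panel old and young cells, and filled points have an adjusted p under 0.05. The cap chaperones Psmd5 and Psmd10 lie farthest to the right of the subunits, and Psmb4, Psmd8, Psme1 and Psme4 lie near or left of 0 in all 4 sets of cells.

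The cap chaperones Psmd5 and Psmd10 showed the largest fold changes at 1 DPI of all but Psmc3ip. Psmd5 (chromosome 2, 34849734 to 34874968, minus strand, GRCm38), which holds ATPases of the cap base during assembly, measured 132, 77.9, 96.4 and 136 TPM in the 4 KO libraries at 1 DPI, against 17.9, 19.4 and 16.6 TPM in KO QSC. In control cells it measured 115, 136, 121 and 120 TPM at 1 DPI, against 20.7, 15.4 and 19.1 TPM in QSC. The states did not overlap in either genotype. The log2 fold change was 2.52 (SE 0.19, limma adjusted p = 6.93e-09) in KO cells, 2.68 (SE 0.19, limma adjusted p = 2.02e-09) in control cells, 2.69 (SE 0.32, limma adjusted p = 2.23e-05) in old cells and 2.93 (SE 0.32, limma adjusted p = 1.41e-05) in young cells.

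Psmd10, or gankyrin, another chaperone of the cap base, measured 45.3, 40.0, 43.6 and 49.7 TPM in KO cells at 1 DPI, against 8.47, 11.7 and 15.5 TPM in KO QSC. In control cells it measured 51.7, 52.5, 22.4 and 40.4 TPM at 1 DPI, against 8.72, 5.72 and 3.21 TPM in QSC. Again the states did not overlap. Its log2 fold change was 1.86 (limma adjusted p = 2.97e-05) in KO cells, 2.64 (3.00e-07) in control cells, 3.59 (2.67e-06) in old cells and 2.58 (4.96e-05) in young cells. Psmd9, the remaining cap chaperone, was also called in all 4 comparisons, with log2 fold changes between 0.73 and 0.99.

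Among cap subunits the deubiquitinase Psmd14 (chromosome 2, 61711694 to 61800376, plus strand) measured 226, 214, 230 and 319 TPM in KO cells at 1 DPI, against 65.7, 66.2 and 84.0 TPM in KO QSC. In control cells it measured 204, 240, 214 and 305 TPM at 1 DPI, against 58.5, 73.9 and 53.3 TPM in QSC. Every library at 1 DPI lay above every QSC library, and the log2 fold change was 1.76 in KO cells, 1.94 in control cells, 2.37 in old cells and 2.10 in young cells, with limma adjusted p of 1.03e-07, 1.74e-08, 2.96e-06 and 1.03e-05 in the same order. The ATPase Psmc1 had log2 fold changes of 1.32, 1.77, 2.09 and 1.60, and the cap subunit Psmd13 of 1.18, 1.81, 1.84 and 1.36, in KO, control, old and young cells, all called.

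The catalytic subunits moved unequally. Psmb5 (chromosome 14, 54614119 to 54618022, minus strand), the lowest core subunit at rest, measured 219, 148, 191 and 248 TPM in KO cells at 1 DPI, against 72.7, 67.8 and 102 TPM in KO QSC. In control cells it measured 217, 222, 192 and 242 TPM at 1 DPI, against 71.3, 71.9 and 81.8 TPM in QSC. It rose by 1.30 in KO, 1.53 in control, 1.92 in old and 1.41 in young cells on the log2 scale, all called. Psmb7 rose by 0.59, 0.72, 1.08 and 0.75 in the same groups. Psmb6, among the highest subunits at rest, had log2 fold changes of 0.27 in KO cells, 0.35 in control cells, 0.39 in old cells and 0.31 in young cells. Only that of control cells was called (limma adjusted p = 0.0484), and it was -0.017 with median-of-ratios scaling.

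Psmb4 (chromosome 3, 94884093 to 94886961, minus strand), a beta subunit without an active site, measured 211, 186, 234 and 293 TPM in KO cells at 1 DPI, against 213, 194 and 244 TPM in KO QSC, so the states overlapped. Its log2 fold changes were 0.08, 0.18, 0.15 and 0.16 in KO, control, old and young cells, none called. The ATPase Psmc6 and the cap subunits Psmd8 and Psmd11, all high at rest, were likewise called higher in none of the 4. With median-of-ratios scaling, Psmd8 (log2 fold change -0.63, limma adjusted p = 0.000211), Psmc6 (-0.61, 0.00189) and Psmd11 (-0.51, 0.00971) passed as lower in control cells. Psme4 measured 32.5, 47.7, 34.4 and 33.7 TPM in KO cells at 1 DPI, against 57.1, 65.6 and 48.5 TPM in KO QSC, and 32.7, 18.9, 31.3 and 29.4 TPM in control cells at 1 DPI, against 61.1, 43.6 and 64.4 TPM in control QSC. The states did not overlap, and it fell by 0.99 on the log2 scale in control cells (limma adjusted p = 0.0052) and by 0.81 in young cells (0.0164), with log2 fold changes of -0.61 (0.0793) in KO cells and -0.51 (0.115) in old cells. The largest change of the 40 was that of Psmc3ip, which reached 44.5 to 93.6 TPM in KO cells at 1 DPI, against 4.15 to 7.07 TPM in KO QSC, and 54.7 to 84.7 TPM in control cells at 1 DPI, against 4.18 to 4.50 TPM in control QSC.

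The core subunits lay closer together in level after injury. The SD of log2 level across the 14 core subunits was 0.66 to 0.73 in the libraries of the Drp1 table at 1 DPI, against 0.84 to 0.92 in QSC. The highest core subunit was 4.19 to 5.26 times the lowest at 1 DPI, against 6.56 to 8.69 times in QSC, and 4.49 to 5.84 times at 3 DPI. These spreads were not tested.

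Leaving out the 3 libraries with most macrophage marker RNA at 1 DPI (KO library 2 and control libraries 1 and 3), a choice made after the data were seen, gave 31 genes higher and 1 lower in KO cells (22.5% and 10.1% of all genes), with a median of 0.78, against 0.17 over all. It gave 32 higher and 1 lower in control cells (21.6% and 10.4%), with a median of 0.95, against 0.12 over all. Neutrophil and macrophage markers were still higher, and fibro-adipogenic markers lower, at 1 DPI than in QSC in the remaining libraries of both genotypes, by the ranges given above, and their part in the result was not tested. At 1 DPI the macrophage sums were 325, 802, 2651 and 4028 TPM in control libraries 4, 2, 1 and 3. The summed levels of the 42 genes in these were 12418, 11409, 9896 and 9719 TPM. In KO libraries 4, 3, 1 and 2 the macrophage sums were 505, 634, 1352 and 7982 TPM. The summed levels of the 42 genes there were 12240.5, 10700, 11297 and 8651 TPM. A relation between these sums was not tested.

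Between 1 DPI and 3 DPI fewer of the genes were called. In KO cells 8 genes were called higher and 1 lower (6.8% and 12.1% of all genes), with a median log2 fold change of 0.23, against -0.17 over all. In control cells 4 were called higher and 1 lower (5.09% and 8.25% of all genes), with a median of 0.21, against -0.13 over all. Psmb7, the ATPase Psmc3 and Psmd10 were called higher in both, with log2 fold changes in KO and control cells of 0.49 and 0.54, 0.44 and 0.49, and 0.80 and 0.93. Psmc3ip fell by 1.11 in KO cells (limma adjusted p = 0.0017) and by 1.06 in control cells (0.0058). Without the libraries of most macrophage marker RNA at 1 DPI, 6 genes were called higher and 1 lower in KO cells (5.88% and 12.2% of all genes), with a median of 0.15. In control cells 0 were then higher and 1 lower, Psmc3ip (3.33% and 5.74%), with a median of 0.10. The sums of macrophage, neutrophil and fibro-adipogenic markers in both states are given above, and their part in the result was not tested. In KO and control cells the sort gate also changes at 3 DPI, so gate and state cannot be told apart. In old cells 0 were called higher and 5 lower at 3 DPI (5.74% and 11.8% of all genes), with a median of -0.22, against -0.24 over all.

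The 5 genes that fell in old cells were Psmc3ip, Psmd12, Psmd7, Psma3 and Psme3. As a share of the 40 they lay near the 11.8% of all genes called lower. Psmd12, a cap subunit, measured 204, 220 and 204 TPM at 3 DPI, against 328, 339 and 398 TPM at 1 DPI, with no overlap (log2 fold change -0.76, SE 0.13, limma adjusted p = 0.00182). With median-of-ratios scaling, which moved the median of all genes by 0.25, the median over the 40 genes was 0.13 and 1 gene was called in each direction (7.99% and 5.4% of all genes higher and lower), and 59.6% of all called genes were higher in place of 32.7%. The rise in macrophage marker RNA in these libraries, given above, and the step from 1 DPI to 3 DPI cannot be told apart, and there is no young group at 3 DPI here.

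Set against QSC, 3 DPI cells had 30 genes higher and 0 lower in KO (23.7% and 20.9% of all genes), 32 and 0 in control (23.5% and 19.8%), and 31 and 1 in old cells (23.3% and 15.3%). The medians were 0.93, 1.17 and 0.97 in KO, control and old cells, against -0.03, 0.00 and 0.08 over all genes. Psmd5 was 3.20 higher on the log2 scale in KO cells (limma adjusted p = 1.13e-10) and 2.87 in control cells (8.71e-10), and Psmd10 was 2.65 higher in KO cells (1.9e-07) and 3.57 in control cells (8.57e-09). The gene that fell in old cells was Psme3, by 0.75 (limma adjusted p = 0.0124). These contrasts share libraries with the steps above. In KO and control cells they also carry the change of sort gate at 3 DPI, which cannot be told apart from the state. Median-of-ratios scaling moved the median of all genes by -0.17 in KO and -0.16 in control cells and gave 28 genes higher and 2 lower in each (19.6% and 27.1% of all genes in KO, 20.2% and 25.3% in control cells), with medians of 0.64 and 0.87. In KO cells 41.9% of all called genes were then higher, in place of 53.1%. In old cells this scaling gave 25 genes higher and 1 lower, with a median of 0.81. Of all 16949 genes, 3500 were then higher and 3164 lower. The macrophage list summed to 101 to 390 TPM in old QSC and 5680 to 6984 TPM in old cells at 3 DPI. Its part in the result was not tested.

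Deletion of Drp1 was followed by no called change in any proteasome subunit in any state. The deleted gene Dnm1l itself measured 32.7, 34.0 and 43.4 TPM in KO QSC, against 38.2, 39.5 and 30.9 TPM in control QSC, and these overlapped. At 1 DPI it measured 30.4, 38.5, 29.0 and 41.0 TPM in KO cells, against 52.9, 48.8, 43.8 and 49.5 TPM in control cells, with no overlap (log2 fold change -0.49, limma adjusted p = 0.699). At 3 DPI it measured 29.2, 22.2, 37.5 and 24.2 TPM in KO cells, against 69.8, 61.5 and 64.9 TPM in control cells, again with no overlap (log2 fold change -1.21, limma adjusted p = 0.00115). Gene TPM also count exons outside the deleted part, so the QSC level does not check the label of those libraries.

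Of the 40 genes, 0 were called in QSC (0.213% of all genes were called), 0 were called at 1 DPI (0.278%) and 0 at 3 DPI (0.283%) by limma, and 3, 0 and 0 had an unadjusted p under 0.05. Over all genes 870, 963 and 996 had one (4.74%, 5.25% and 5.43%). The median log2 fold change was 0.14 in QSC, -0.01 at 1 DPI and 0.01 at 3 DPI. The median half-width of the 95% intervals was 0.364, 0.315 and 0.340, so smaller shifts were not resolvable for a typical subunit. These intervals are not adjusted for the number of genes, so shifts above these half-widths could also go uncalled. Psmb5 differed by 0.09 in QSC (95% interval -0.26 to 0.43), by -0.14 at 1 DPI (-0.43 to 0.16) and by 0.04 at 3 DPI (-0.28 to 0.36). Psmb6 differed by 0.05, -0.04 and 0.05, and Psmb7 by 0.14, 0.01 and -0.04, in the same states.

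In QSC 35 of the 40 genes had a positive difference, and those of smallest p were Psmd10, Psmd13 and Psmd1. Psmd10 measured 8.47, 11.7 and 15.5 TPM in KO cells, against 8.72, 5.72 and 3.21 TPM in control cells, so the groups overlapped (log2 fold change 0.95, SE 0.29, limma adjusted p = 0.479). Psmd13 measured 90.2, 74.8 and 104 TPM in KO cells, against 52.7, 75.5 and 60.8 TPM in control cells, also with overlap (0.51, SE 0.18, limma adjusted p = 0.662). Psmd1, a cap scaffold, differed by 0.36 (SE 0.17, limma adjusted p = 1). KO QSC library 3 had 76 TPM of proliferation markers, against 7 to 15 TPM in the other QSC libraries of the table; without it the median over the genes was 0.03 and 22 were above 0. Its part in the result was not tested further. At 3 DPI the smallest p was that of Psmd3, with a difference of 0.33 (limma adjusted p = 0.944).

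The test of whether the step to 1 DPI differed between genotypes called 0 of the 40 genes (0.0218% of all genes). It put 1 at an unadjusted p under 0.05 (4.32% of all genes), Psmd13 (difference of log2 fold changes -0.62, SE 0.23, limma adjusted p = 1). For the step between 1 DPI and 3 DPI it called 0 (0.0% of all genes), with 0 at an unadjusted p under 0.05 (4.53% of all genes).

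**Figure D4:**
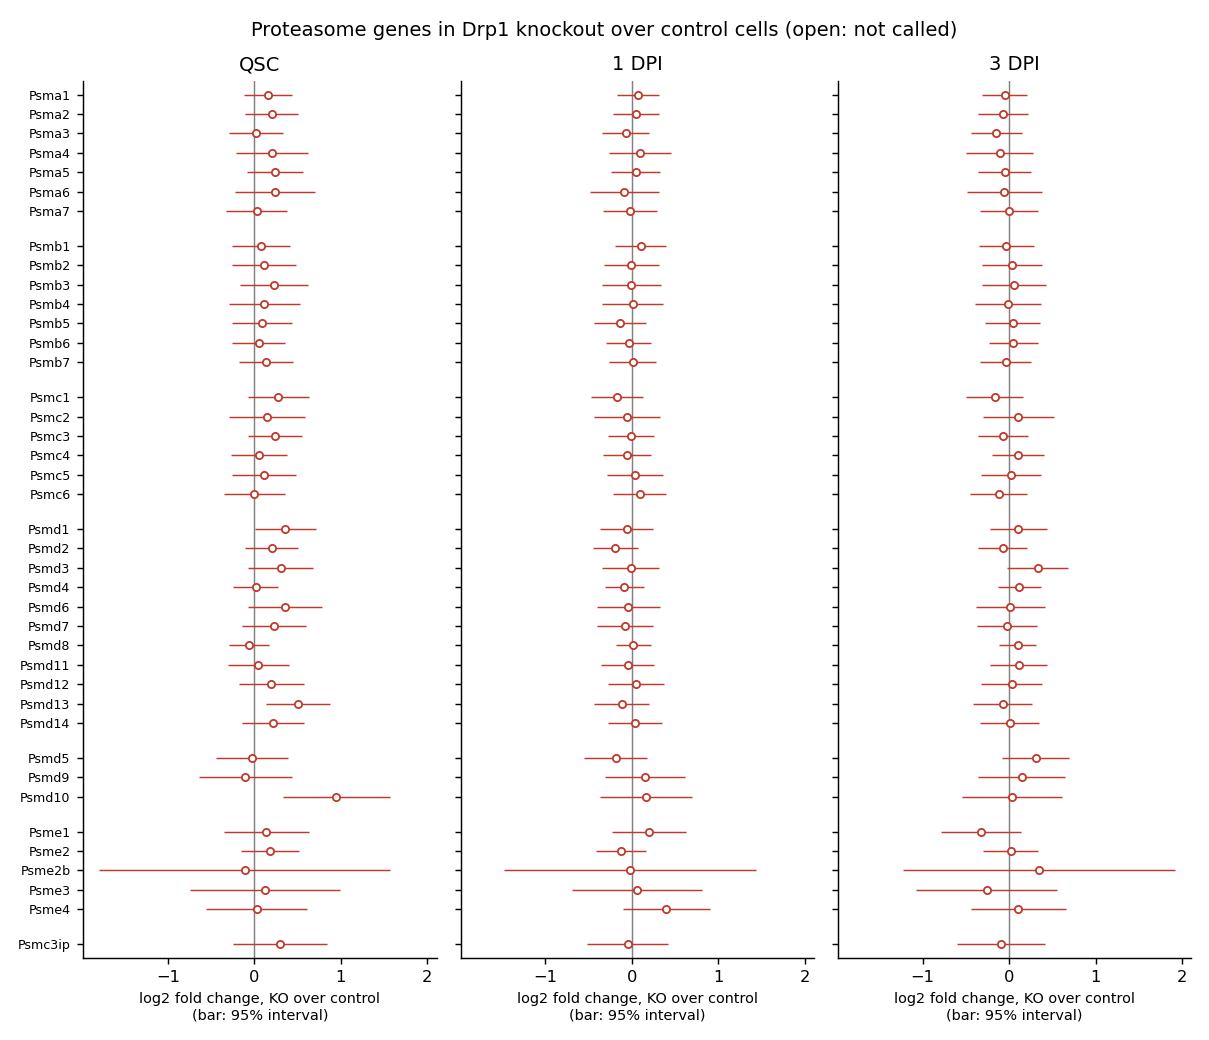
Log2 fold change (TPM + 1) of KO over control cells for each tested gene by state (QSC, 1 DPI, 3 DPI), with 95% intervals; all points are open, as none has an adjusted p under 0.05. Points lie mostly above 0 in QSC, where the median is 0.14, and around 0 at 1 DPI and 3 DPI.

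Old QSC had lower levels of 2 cap subunits than young QSC. Psmd2 (chromosome 16, 20651652 to 20663414, plus strand), the scaffold on which ubiquitin shuttles dock, measured 109, 126 and 124 TPM in old QSC, against 212, 263 and 216 TPM in young QSC. The groups did not overlap, and the log2 fold change was -0.93 (SE 0.14, limma adjusted p = 0.0106). Psmd8 (chromosome 7, 29174188 to 29180701, minus strand) measured 150, 183 and 157 TPM in old QSC, against 263, 299 and 267 TPM in young QSC, again with no overlap (-0.76, SE 0.13, limma adjusted p = 0.0217). Psmd1 measured 56.4 to 101 TPM in old QSC, against 154 to 160 TPM in young QSC, with no overlap, and missed the threshold (-0.93, SE 0.21, limma adjusted p = 0.0594).

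Over the 40 genes 0 were called higher and 2 lower (0.726% of all genes were called in either direction), 13 had an unadjusted p under 0.05 (14.1% of all genes did), and the median log2 fold change was -0.29, against -0.04 over all genes. Of all called genes 47.2% were higher in old QSC, and 66.4% with median-of-ratios scaling, under which 1 of the 40 was called, lower. All old QSC libraries lay below all young ones for 10 of the 40 genes, against 14.3% of all genes. The sum of the core subunits in old QSC was 0.899 times that of young QSC, that of the cap subunits 0.762 times and that of the activators 1.02 times. The active-site subunits were not called: Psmb5 differed by -0.34 (limma adjusted p = 0.359), Psmb6 by -0.06 (0.915) and Psmb7 by -0.49 (0.304).

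Markers of other cells moved with age in QSC. The macrophage list summed to 390, 101 and 373 TPM in old QSC, against 91.5, 34.7 and 43.2 TPM in young QSC, and the neutrophil list to 4487, 30.7 and 25.4 TPM, against 8.25, 17.2 and 4.25 TPM, with no overlap in either. The erythroid list summed to 1265, 4.83 and 102 TPM in old QSC, against 2.83, 10.6 and 2.47 TPM in young QSC, with overlap. Their part in the difference was not tested beyond leaving out single libraries. Without old library 1 the median over the 40 genes was -0.11, 11 were above 0 in place of 4, and 5 had an unadjusted p under 0.05. Without old library 2 the median was -0.33 and without old library 3 it was -0.32. Psmd2 kept its call in 8 of 10 alternative settings, with log2 fold changes between -0.99 and -0.84; it lost it when only the compared groups were fitted (limma adjusted p = 0.169) and without young library 5 (0.0659). Psmd8 kept its call in 4 of 10, with log2 fold changes between -0.84 and -0.69. Both tallies count the fit without the filter as a kept call. In that fit 26431 of 55471 genes were called, so it is not informative.

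At 1 DPI no difference between ages was called. Psmd2 measured 315, 295 and 290 TPM in old cells, against 273, 304 and 338 TPM in young cells. By limma 0 of the 40 genes were called (0.142% of all genes) and 0 had an unadjusted p under 0.05 (7.08% of all genes did). The median was 0.13, with the smallest adjusted p that of the alpha subunit Psma7 (0.28, 0.754). Proliferation markers, 5 genes, summed to 260, 164 and 346 TPM in old cells at 1 DPI. In young cells at 1 DPI they summed to 587, 497 and 634 TPM, with no overlap. Their part in these comparisons was not tested. The step to 1 DPI had a larger median in old cells (1.15) than in young cells (0.80), but the test of that difference called 0 of the 40 genes (0.0118% of all genes). It gave 11 at an unadjusted p under 0.05, against 8.83% of all genes. The smallest adjusted p was that of Psmd2 (difference of log2 fold changes 0.92, SE 0.20, limma adjusted p = 0.213).

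**Figure D5:**
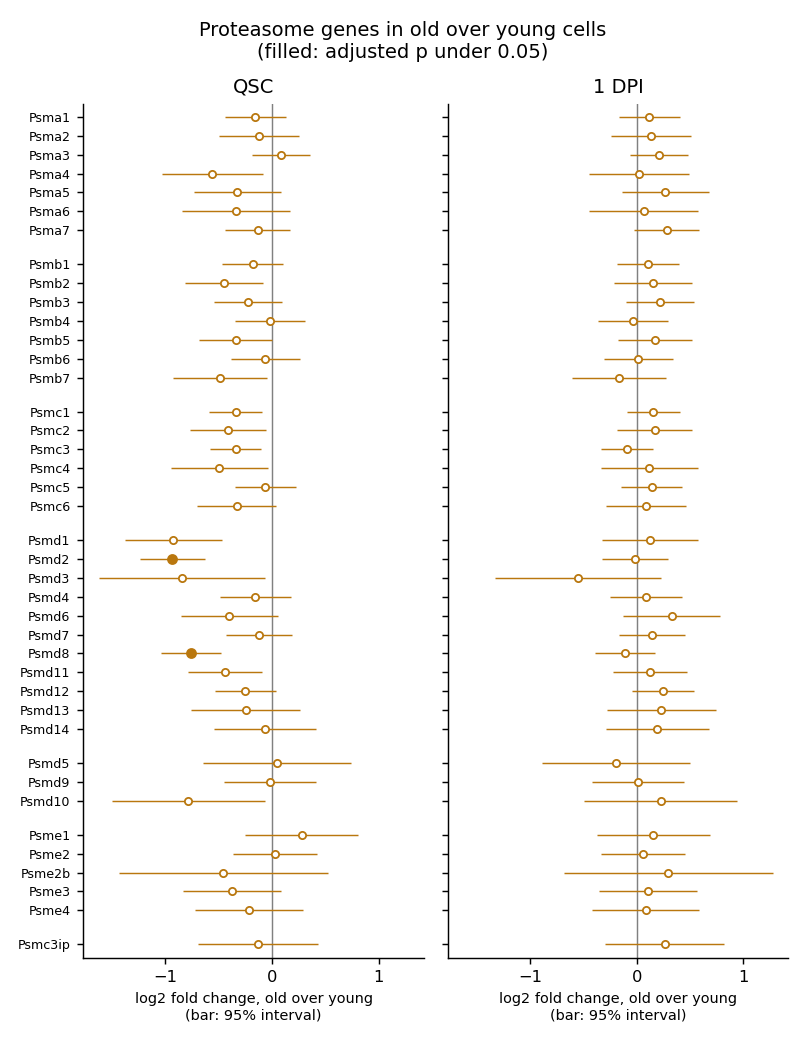
Log2 fold change (TPM + 1) of old over young cells for each tested gene in QSC and at 1 DPI, with 95% intervals; filled points have an adjusted p under 0.05. Psmd2 and Psmd8 are filled in QSC, where the median is -0.29, and no point is filled at 1 DPI.

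Other genes of the pathway, a list of 33 that are not among the 42, were read beside the subunits. The 5 chaperones of core assembly rose with the core at 1 DPI: all 5 were called in KO and control cells and 4 of 5 in old and young cells, where Psmg4 was not. Psmg3 had log2 fold changes of 2.67, 3.12, 3.05 and 2.65 in KO, control, old and young cells, Psmg2 of 2.44, 2.40, 3.11 and 2.98, and Pomp, the maturation factor of the beta ring, of 1.13, 1.41, 1.29 and 1.09, all called. The immunoproteasome subunit Psmb10 rose by 1.88, 1.95, 1.75 and 1.80 in the same order. Psmb9 was called in control, old and young cells and Psmb8 in young cells, and differences between these groups were not tested. Immunoproteasome subunits, Psmb10 among them, are also expressed by immune cells, whose part in these levels was not tested. KO library 2 at 1 DPI, of most macrophage marker RNA, held 117 TPM of Psmb8 against 26.3 to 41.6 TPM in the other KO libraries there. Nfe2l1, a transcription factor known to drive proteasome genes when the complex is inhibited, was not called in any of the 4 (log2 fold changes -0.27, -0.61, -0.49 and -0.13). Nfe2l2, another regulator on the list, was called lower in control, old and young cells. It measured 220, 176 and 158 TPM in old cells at 1 DPI, against 260, 273 and 315 TPM in old QSC. In young cells it measured 175, 212 and 173 TPM at 1 DPI, against 278, 298 and 267 TPM in QSC. The muscle ubiquitin ligase Fbxo32, or atrogin-1, fell by 2.61, 2.73, 1.57 and 2.40.

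In the whole list 13 genes were called higher and 2 lower at 1 DPI in KO cells, 15 and 5 in control cells, 16 and 3 in old cells, and 12 and 3 in young cells. Over all genes 21.6% and 10.6% were called higher and lower in KO cells, 23.3% and 12.6% in control cells, 24.8% and 7.72% in old cells, and 23.2% and 8.79% in young cells, so the shares called lower lay near those of all genes. Between genotypes 0 of the 33 were called by limma in QSC, at 1 DPI or at 3 DPI. In the same order 2, 1 and 1 had an unadjusted p under 0.05 (4.74%, 5.25% and 5.43% of all genes did). Between ages 0 were called by limma in QSC or at 1 DPI, and 5 and 0 had an unadjusted p under 0.05 (14.1% and 7.08% of all genes did). Psmb8 measured 80.7, 37.5 and 43.3 TPM in old QSC, against 23.0, 5.58 and 15.7 TPM in young QSC, with no overlap (log2 fold change 1.91, SE 0.42, limma adjusted p = 0.0567). Of all genes, 21.8% did not overlap between these groups. Old QSC library 1, with the highest Psmb8, also held the most macrophage (390 TPM) and neutrophil (4487 TPM) marker RNA of these groups. The part of immune cells in the Psmb8 difference was not tested.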

How the data were processed

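Sorted cells gave RNA by a PicoPure kit, read single-end, per the labels' protocols, which name both a low-input and a standard directional library kit. The submitters' processing notes list GRCm38, RSEM 1.3.1, cutadapt 1.7.1 and CASAVA 1.8.2; no aligner is stated in the sources. The authors deposited TPM in a table of 21 Drp1 libraries and a table of 15 young and old libraries. GENCODE M21 supplied symbols, gene types and positions (55230 identifiers with a symbol, 241 without).

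The members and lists were chosen with earlier results of these data known. The analysed scale was log2(TPM + 1), which understates fold changes of low genes. A gene entered a table's fit if 3 or more libraries held 1 TPM or more (18343 and 16949 genes). Fits were made table by table with limma 3.58.1 (R 4.3.3), using group means and eBayes with a trend, and two-sided p-values were Benjamini-Hochberg adjusted over all genes at a threshold of 0.05. The fit was tested on simulated data. No library was a duplicate of another (smallest median log2 difference 0.218). Alternatives were a pseudocount of 0.1, no filter, median-of-ratios scaling, the compared groups only, a replicate block, leaving out each library, and, chosen after seeing the data, leaving out 3 libraries. Named genes were called genes of smallest p between genotypes and ages (the 3 of smallest p where fewer than 3 were called), called genes of largest change at injury steps, the highest and lowest gene of each role, and the catalytic subunits. Psmb4, Psmc6, Psmg4 and Gm4742 fall outside that rule and were picked with their values in view. One item is not reported here. Transcripts were compared with BLAST 2.17.0. Other work used Python 3.11.15, pandas 2.3.3, numpy 2.4.6, matplotlib 3.10.9 and scipy 1.17.1.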

Additional observations from a re-analysis of the deposited data

Results flagged for a closer look

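In groups of 4 libraries, a library was marked where its gap to the nearest other, divided by the range of the group, passed Dixon's 95% critical value of 0.829. This was the case for 8 of 120 groups of 4 (40 genes in control cells at 1 DPI and in KO cells at 1 DPI and 3 DPI), and chance flags about 1 in 20. Of the 8, 4 concern KO library 2 at 1 DPI, the library with most macrophage marker RNA. It had lower levels than the other KO libraries of the alpha subunit Psma1 (260 TPM, others 342 to 350.1), the ATPase Psmc5 (224 TPM, others 312 to 320.1) and the cap subunit Psmd7 (223 TPM, others 294 to 306), and a higher level of the activator Psme4 (47.7 TPM, others 32.5 to 34.4). Psmd14 was higher in KO library 4 at 1 DPI (319 TPM, others 214 to 230). The cap subunit Psmd6 was higher in control library 4 at 1 DPI (204 TPM, others 173 to 179). At 3 DPI the beta subunit Psmb3 was higher in KO library 2 (814 TPM, others 719 to 729), and the activator Psme1 was lower in KO library 3 (49.5 TPM, others 88.6 to 91.9).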

How the results depend on the processing

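Of 158 named results that were called, 38 lost their call in at least 1 of the other settings listed with the methods, the one added later included. The direction of 1 reversed, Psmb6 at 1 DPI over QSC in control cells (-0.017 with median-of-ratios scaling). The number of called genes among the 40 moved by more than 1.5 times in these cases. For control cells at 3 DPI over 1 DPI it was 5, with 3 without the filter, 10 with median-of-ratios scaling and 1 without the 3 libraries of most macrophage marker RNA. For KO cells at that step it was 9, with 4 when only the compared groups were fitted. For old over young QSC it was 2, with 8 without the filter, 1 with median-of-ratios scaling and 0 with the compared groups only. Without the filter, genes at the floor of that table pass the test, so this value is not informative. For young cells at 1 DPI over QSC it was 30, with 16 under median-of-ratios scaling. For old cells at 3 DPI over 1 DPI it was 5, with 2 under median-of-ratios scaling and 2 with the compared groups only, and the median over the 40 genes turned to 0.13 under that scaling. In these cases the cause was not tested.

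Leaving out each library gave 23 to 31 called genes in KO and 27 to 32 in control cells at 1 DPI over QSC, 30 to 32 in old and 24 to 28 in young cells. At 3 DPI over 1 DPI it gave 6 to 14 in KO, 1 to 7 in control and 2 to 4 in old cells, and at 3 DPI over QSC 30 to 31, 28 to 33 and 28 to 31. For old over young QSC it gave 0 to 4, and for the other comparisons between groups 0 to 0. Single libraries moved a count by more than 1.5 times. In control cells at 3 DPI over 1 DPI it was 3 without 1 DPI library 1 or 3, 1 without 3 DPI library 1, and 2 without 3 DPI library 2 or 3. In KO cells at that step it was 14 without 1 DPI library 4. In old cells it was 2 without 1 DPI library 1 or 3 DPI library 3, and 3 without 1 DPI library 2 or 3 or 3 DPI library 1. For old over young QSC it was 1 without old library 1, 4 without old library 2, 1 without young library 4 or 6, and 0 without young library 5.

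Replicate numbers did not pair the libraries: over 31 pairs of same-numbered libraries the correlation of deviations was -0.21 to 0.19, with 1 over 0.1, and 11 libraries correlated best with their own number. With a replicate block the called genes were 0 for KO over control in each state, 28, 10 and 30 in KO cells at 1 DPI over QSC, 3 DPI over 1 DPI and 3 DPI over QSC, and 30, 7 and 32 in control cells. They were 32, 6 and 32 in old cells and 21 in young cells at 1 DPI over QSC. TPM keep no depth, so what depth limits cannot be stated.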

Other observations

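The processed pseudogene Gm4742, a copy of Psma3 (96.3% identity over 77.9% of the Psma3 transcript), was chosen after its values were seen. It measured 22.3 TPM in KO QSC library 1 and was listed at 0 in KO QSC libraries 2 and 3, measured 27.2, 9.73, 14.1 and 17.6 TPM in KO cells at 1 DPI and 16.0, 14.8, 37.3 and 29.7 TPM at 3 DPI, and was listed at 0 in all 10 control libraries. In the table of ages it reached at most 0.436 TPM.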
